A study of Homo sapiens with 12 samples.

Results

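Collagens are the extracellular proteins built from 3 chains wound into a triple helix, and each chain has a gene of its own. The genes described here are the protein-coding genes of chromosomes 1 to 22 whose symbol has the form COL, number, A, number, without COL11A2. The rule uses the symbol and no measured value, although the family was picked with earlier results of these data known. A total of 41 genes matched, and the 40 with at least 5 measured CpGs of both marks within the gene and 1500 bp on each side were kept, out of 17553 autosomal protein-coding genes that met that minimum. The gene that dropped out, COL3A1, had 0 CpGs in the tables and was not analysed here. The cells were SV-HUC-1, an immortalised human urothelial line made with SV40 genes, so all groups share that background. They received 2,6-dichloro-1,4-benzoquinone (DCBQ), a halogenated quinone formed when drinking water is disinfected, or blank solution as the control. Harvest followed after 3 days. Bisulfite libraries of reduced representation (RRBS, which samples CpG-rich DNA) and oxidative RRBS libraries were made, 3 of each kind per condition, hence 4 groups of 3 and 12 samples. The deposited tables give 5-methylcytosine (5mC) and 5-hydroxymethylcytosine (5hmC) per CpG in 6 columns each, 3 control and 3 DCBQ.

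Fibrillar collagens such as types I and V form the tension-bearing fibrils of connective tissue, whereas type IV collagen forms the sheet of the basement membrane on which the urothelium rests. Type VII collagen anchors that sheet to the tissue below, type XVII collagen spans the membrane of basal cells in hemidesmosomes, and types XV and XVIII sit in basement membrane zones. Methylation of a CpG-rich start is widely associated with silence of the gene, while methylation of the body is common in transcribed and silent genes alike. 5hmC arises when TET enzymes oxidise 5mC. RNA levels were not analysed here, so no statement on expression is made.

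Over all CpGs, DCBQ samples differed from controls by -0.416 percentage points in mean 5mC (SE 0.105, 54.1% ± 0.0979 against 54.5% ± 0.154, SD, n = 3 each), while mean 5hmC differed by 0.0978 points (SE 0.0899). The two-sided exact permutation p was 0.1 for 5mC, the smallest that 3 against 3 allows, and 0.4 for 5hmC. The collagen genes are read against that background below. Neither table gives read depth, so counting error is unknown. Nothing in the labels ties replicates to separate cultures, and the spread behind each p-value may therefore be technical. The sources used here do not say how the authors derived the 5hmC table from the library types, and the marks may not be independent readings.

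The promoter reference used here (GRCh38.p14) listed a transcription start for 29 of the 40 genes. A missing entry is a gap in that reference and does not mean that the gene lacks a known start. The 250 bases upstream of 6 of these starts are printed because the later results turn on them. The COL4A2 sequence also holds the start of COL4A1, on the opposite strand at chr13:110307157. COL15A1 is shown for a start low in 5mC, COL16A1 and COL26A1 for methylated upstream stretches, and COL18A1 for its pair of starts, of which the second lies inside the gene. Sequences run 5′ to 3′ on the gene's strand, and capitals mark each CG, the dinucleotide at which both marks were read. Not every CG has a value: the COL15A1 stretch holds 38 CGs and 18 measured CpGs, that of COL16A1 16 and 9. CG occurs in 99.5% of the upstream sequences of all 11690 genes with a start window and in 100% of those of the 21 collagen genes that have one, with medians of 21 and 22 CGs.

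The upstream sequences are as follows.
COL4A2 (chr13:110307034-110307283, plus strand): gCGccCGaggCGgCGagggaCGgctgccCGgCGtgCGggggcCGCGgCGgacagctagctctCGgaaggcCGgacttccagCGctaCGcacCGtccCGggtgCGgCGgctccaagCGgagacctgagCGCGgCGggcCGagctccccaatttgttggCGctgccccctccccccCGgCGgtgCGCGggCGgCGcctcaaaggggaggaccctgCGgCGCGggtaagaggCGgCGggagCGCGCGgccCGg
COL15A1 (chr9:98943657-98943906, plus strand): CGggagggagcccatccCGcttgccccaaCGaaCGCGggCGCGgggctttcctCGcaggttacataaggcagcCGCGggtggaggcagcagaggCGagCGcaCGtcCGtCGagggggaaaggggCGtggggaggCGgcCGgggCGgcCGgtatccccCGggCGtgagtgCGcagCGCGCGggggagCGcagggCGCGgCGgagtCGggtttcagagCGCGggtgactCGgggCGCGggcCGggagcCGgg
COL16A1 (chr1:31704018-31704267, minus strand): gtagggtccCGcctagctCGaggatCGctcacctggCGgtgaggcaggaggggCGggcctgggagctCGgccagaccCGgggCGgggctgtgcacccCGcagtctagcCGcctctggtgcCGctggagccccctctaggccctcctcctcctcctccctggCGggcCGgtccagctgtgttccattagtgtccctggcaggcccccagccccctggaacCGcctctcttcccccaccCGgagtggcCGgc
COL26A1 (chr7:101362625-101362874, plus strand): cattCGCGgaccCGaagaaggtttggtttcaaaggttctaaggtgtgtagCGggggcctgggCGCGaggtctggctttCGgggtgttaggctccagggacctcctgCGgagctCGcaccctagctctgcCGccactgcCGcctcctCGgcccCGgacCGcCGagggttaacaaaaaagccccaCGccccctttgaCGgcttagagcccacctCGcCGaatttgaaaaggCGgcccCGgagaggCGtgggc
COL18A1 first start (chr21:45404915-45405164, plus strand): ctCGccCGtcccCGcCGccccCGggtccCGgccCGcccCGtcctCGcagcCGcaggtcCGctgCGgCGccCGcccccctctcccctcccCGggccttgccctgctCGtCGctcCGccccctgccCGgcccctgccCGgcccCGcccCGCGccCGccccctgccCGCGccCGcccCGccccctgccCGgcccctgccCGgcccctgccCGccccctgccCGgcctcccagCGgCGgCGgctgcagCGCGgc
COL18A1 internal start (chr21:45455272-45455521, plus strand): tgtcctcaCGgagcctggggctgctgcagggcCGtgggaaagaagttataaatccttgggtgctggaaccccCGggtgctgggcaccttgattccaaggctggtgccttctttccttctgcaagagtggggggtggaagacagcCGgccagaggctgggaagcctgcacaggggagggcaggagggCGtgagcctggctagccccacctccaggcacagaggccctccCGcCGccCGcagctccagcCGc

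These stretches differ in CG content. That of COL4A2 holds 40 CGs and that of COL15A1 38, with observed-to-expected CG ratios of 1.04 and 1.11. The COL16A1 stretch has 16 CGs at a ratio of 0.482, and the internal COL18A1 stretch 9 CGs at 0.329, while its first start has 37 CGs at 0.889. COL26A1, with 22 CGs and a ratio of 0.838, close to the all-gene median of 0.813, nevertheless read 78.8% 5mC over its 11 measured upstream CpG positions in controls. Across the 21 collagen genes with a start window, Spearman's rho between this ratio and start 5mC was -0.200, and across 11690 genes it was -0.355, given as descriptions, since all genes come from the same samples.

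Most collagen starts carried little 5mC. In the window from 1500 bp upstream to 500 bp downstream of the start, 15 of the 21 collagen genes with at least 5 measured CpGs averaged below 20% 5mC over the 6 samples, 5 lay from 20% to under 80%, and 1 was at 80% or more. The shares were 71.4%, 23.8% and 4.76%, against 74.6%, 19.2% and 6.18% of all genes with such a window. The remaining 8 genes with a listed start, among them COL17A1, COL6A3, COL5A3, COL10A1 and COL11A1, had too few measured CpGs there.

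Type IV collagen genes, of the basement membrane, were among the lowest. COL4A1 and COL4A2 are transcribed away from each other from neighbouring starts on chromosome 13, and COL4A3 and COL4A4, the chains of the kidney and other specialised basement membranes, do the same on chromosome 2, so each pair shares most of its CpGs and the members of a pair are not independent. COL4A1 averaged 1.16% ± 0.0744 in controls and 1.06% ± 0.0692 in DCBQ samples (SD, n = 3 each), with 120 of its 120 CpGs below 20%. COL4A2 had 109 of 115 CpGs below 20%, COL4A3 114 of 114 and COL4A4 110 of 110. Among fibrillar collagens, COL5A1 (control mean 2.203%) and COL27A1 (2.501%) were low, whereas COL24A1 read 50.6%. The multiplexins COL15A1 (4.02%) and COL18A1 (9.59%) and the transmembrane collagens COL13A1, COL23A1 and COL25A1 (1.93%, 3.78% and 8.55%) were low as well, as were COL12A1 (0.988%), COL7A1 (6.35%), COL6A2 (9.42%) and COL19A1 (14.6%).

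The fibril-associated collagens, which coat the surface of fibrils, spanned the whole range. COL12A1 averaged 0.988%, COL9A2 42.2% and COL16A1 88.998% in controls. At COL16A1, 16 of 18 CpGs stood at 80% or more and none was below 58.9%. COL8A2, a chain of the hexagonal lattice under the corneal endothelium, was mixed within its window: 7 of 86 CpGs lay below 20% and 29 at 80% or more. The same held for COL26A1 (21 of 45 below 20%, 12 at 80% or more), COL9A2 (24 and 8 of 62), COL24A1 (6 and 5 of 28) and COL6A6 (19 and 2 of 40). The remaining CpGs of each window lay from 20% to under 80%, so the intermediate means hold low, intermediate and high CpGs.

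**Figure D1:**
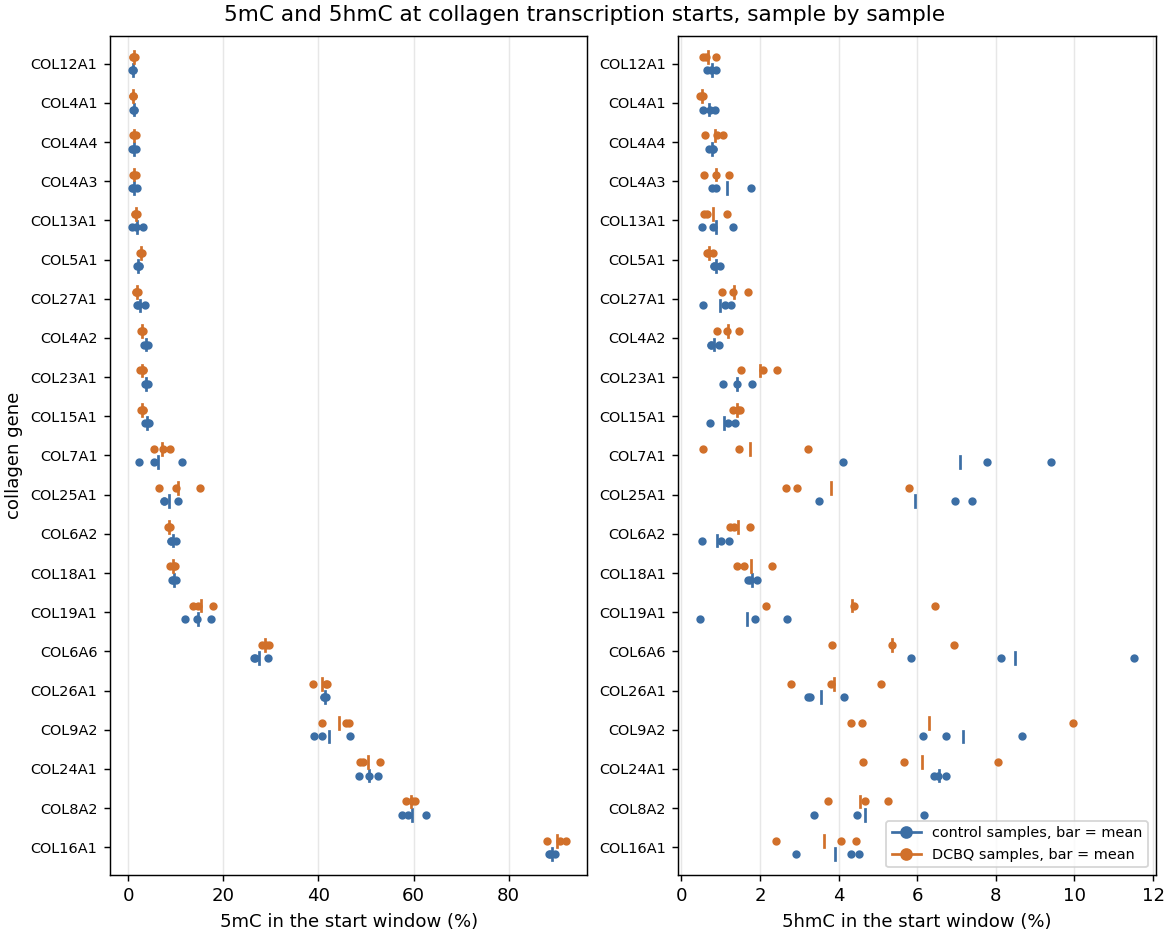
Mean 5mC (left) and 5hmC (right) in the start window of 21 collagen genes, in percent, with 1 point per sample, a bar at each group mean, and control and DCBQ samples offset vertically. From COL12A1 to COL19A1 all genes lie below 20% 5mC, COL16A1 stands at the other end with 88.0% to 92.0%, and 5hmC stays below 12%.

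The design asks whether DCBQ altered either mark. At the starts, no collagen gene passed an adjusted p of 0.05 in limma's moderated test, for 5mC or 5hmC, and 0.0% of all genes did for either mark. The smallest adjusted p of a collagen gene was 0.621 for 5mC and 0.952 for 5hmC. Without adjustment, 3 of 21 collagen starts had a 5mC p under 0.05 and 2 of 21 a 5hmC p under 0.05, against a background of 6.66% and 4.77% of all starts. The median collagen difference in 5mC was -0.102 points, with 11 genes lower and 10 higher, against -0.0905 points and 59.3% of genes lower over all 11688 starts tested. With each sample centred on its mean over all CpGs, 6 of 21 were lower, and 25.0% of all genes. The sign of this median turned without control replicate 1 (0.347), without DCBQ replicate 1 (0.0768) and without DCBQ replicate 3 (0.115).

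In 4 low starts the groups separated in 5mC, with every DCBQ sample below every control. Over all genes 8.18% did so. The type XV multiplexin COL15A1 read 3.48%, 4.34% and 4.23% in controls and 3.14%, 2.67% and 3.06% after DCBQ, differing by -1.06 points (SE 0.303, adjusted p = 0.621). COL23A1, a transmembrane collagen, read 4.17%, 3.47% and 3.71% in controls and 3.25%, 3.25% and 2.43% after DCBQ. COL4A2 read 3.31%, 4.12% and 3.67% in controls and 3.03%, 3.25% and 2.66% after DCBQ. The differences of the latter pair were -0.806 (SE 0.323) and -0.722 (SE 0.293) points, with adjusted p = 0.746 and 0.749. Last came COL6A2, a chain of the beaded type VI filaments, at 9.13%, 10.01% and 9.13% in controls and 8.68%, 8.504% and 8.87% after DCBQ. All of these are shifts of about 1 percentage point or less at starts whose level stayed under 11%.

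In the other direction, COL5A1 was the only start with every DCBQ sample above every control, at 2.38%, 1.82% and 2.41% in controls and 2.84%, 2.63% and 2.49% after DCBQ, differing by 0.454 points (SE 0.237, adjusted p = 0.827). Over all genes 3.81% did so. COL12A1, which links fibrils to their surroundings, read 1.06%, 0.938% and 0.961% in controls and 1.49%, 1.12% and 1.01% after DCBQ. The type VI chain COL6A6 read 26.5%, 26.7% and 29.5% in controls and 28.1%, 28.9% and 29.6% after DCBQ. In both, the groups overlapped. COL16A1 read 89.7%, 88.8% and 88.5% in controls and 91.96%, 90.8% and 88.0% after DCBQ, so its high level was present in all 6 samples. At COL4A1 the values were 1.18%, 1.08% and 1.23% in controls and 0.987%, 1.07% and 1.12% after DCBQ, and at the first start of COL18A1, the precursor of endostatin, 9.32%, 10.04% and 9.403% in controls and 9.84%, 9.56% and 8.76% after DCBQ. Differences at these starts were within the spread of the samples, -0.102 (SE 0.146) and -0.2 (SE 0.418) points.

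5hmC at the starts was low, with a median over the collagen genes of 1.43% in controls, against 1.09% over all genes. It tracked 5mC: genes with more 5mC at the start had more 5hmC, with Spearman's rho of 0.814 across the 21 collagen genes and 0.809 across 11627 genes, both marks coming from the same cells. The highest control means were those of COL6A6 (8.49%), COL9A2 (7.18%), COL7A1 (7.099%) and COL24A1 (6.56%). The order of the marks was not the same gene by gene: COL7A1 had only 6.35% 5mC, while COL16A1, with the highest 5mC, had 3.92% 5hmC.

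The largest 5hmC difference at a collagen start was that of COL7A1, the anchoring fibril gene. Its 21 CpGs averaged 7.78%, 9.41% and 4.103% in controls and 3.21%, 0.554% and 1.48% after DCBQ, differing by -5.35 points (SE 1.47, adjusted p = 0.953). Every DCBQ sample lay below every control, as at 4.22% of all starts. 5mC in the same window was 5.51%, 2.204% and 11.3% in controls and 5.54%, 8.83% and 7.36% after DCBQ, with overlapping groups and control replicates far apart. A 1 kb tile just downstream of the start (chr3:48594001-48595000, 10 CpGs for 5hmC) overlaps this window and shares CpGs with it. The tile is therefore not a separate reading. It read 14.4%, 14.04% and 5.54% in controls and 3.88%, 0% and 2.31% after DCBQ. Control replicate 3 was the lowest control there in 5hmC and the highest in 5mC, at 17.6%.

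The other genes with the smallest p in each direction differed less. COL4A1, at 0.553%, 0.731% and 0.843% in controls and 0.525%, 0.478% and 0.548% after DCBQ, and COL5A1 also had every DCBQ sample below every control. COL6A6 read 11.5%, 8.12% and 5.84% in controls and 3.83%, 6.94% and 5.35% after DCBQ, and COL25A1, a collagen of neurons, 3.51%, 7.38% and 6.97% in controls and 5.801%, 2.94% and 2.67% after DCBQ. The groups overlapped in both, and neither gene passed the test, with adjusted p = 0.953 and 0.953. Higher in the DCBQ samples were COL19A1, at 0.476%, 2.68% and 1.88% in controls and 6.45%, 4.39% and 2.15% after DCBQ over only 7 CpGs, and COL6A2, at 0.996%, 0.524% and 1.22% in controls and 1.35%, 1.75% and 1.23% after DCBQ. COL6A2 was the single gene in which every DCBQ sample exceeded every control in 5hmC, as 5.43% of all starts did. COL23A1 read 1.06%, 1.42% and 1.79% in controls and 2.09%, 1.504% and 2.42% after DCBQ, and COL4A2 0.744%, 0.746% and 0.961% in controls and 0.915%, 1.17% and 1.47% after DCBQ, where the highest control exceeded the lowest DCBQ sample. The first start of COL18A1 read 1.74%, 1.69% and 1.92% in controls and 1.404%, 1.598% and 2.302% after DCBQ. The median collagen difference was -0.0852 points (13 of 21 lower), against 0.0287 and 46.4% lower over all genes, and its sign turned without control replicate 3 (0.0522) and without DCBQ replicate 1 (0.166).

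From the start into the gene, the level of 5mC differed by position. Over the 29 genes with a listed start, the control median was 11.9% from 1500 to 500 bp upstream (9 genes with at least 5 CpGs there), 4.54% in the last 500 bp before the start (19 genes) and 3.19% in the first 500 bp after it (21 genes). It was 20.1% from 500 to 2000 bp (18 genes), 81.9% from 2000 to 10000 bp (14 genes) and 75.8% beyond 10000 bp (29 genes). In the DCBQ samples the medians were 9.39%, 3.33%, 2.15%, 18.8%, 82.0% and 75.1%. The genes measured differ between the distances, so the medians describe whichever genes had CpGs there.

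**Figure D2:**
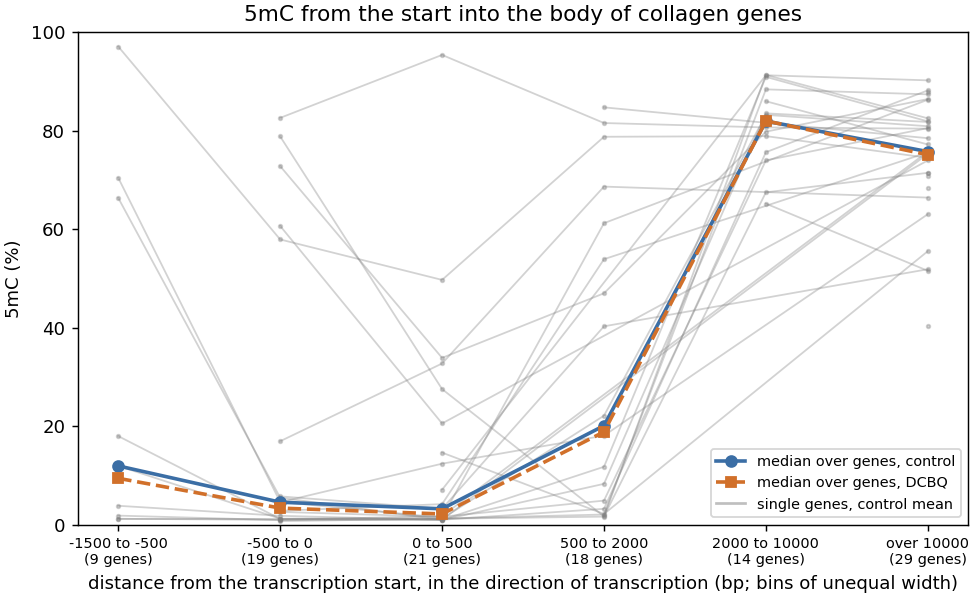
5mC (%) against distance from the transcription start in 6 bins of unequal width, for collagen genes with a listed start. Grey lines are single genes in controls, the blue line is the control median and the dashed orange line the DCBQ median, which runs close to it from 3.19% against 2.15% after the start to 81.9% against 82.0% at 2000 to 10000 bp.

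Collagen bodies were well methylated in both conditions, with a control median of 72.9% 5mC (72.4% over all 15892 gene bodies) and a range from 31.7% in COL19A1 to 90.01% in COL7A1. The body ran from 500 bp after the start to the gene end. For the 11 genes with no listed start it was the whole gene without 500 bp at each end. The lowest levels were in COL19A1, COL9A1 (40.4%), COL2A1 (41.2%), COL15A1 (50.7%) and COL5A3 (52.9%). In COL19A1, 63 of the 141 body CpGs lay 500 to 2000 bp after the start and averaged 2.14% in controls. Its 78 CpGs beyond 10000 bp averaged 55.5%, so the low mean includes CpGs close to the start. The highest, after COL7A1, were in COL17A1 (87.8%) and COL5A1 (87.005%).

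In the DCBQ samples 33 of the 40 collagen bodies read lower in 5mC and 7 higher, with a median difference of -0.492 points. Over all gene bodies 69.8% read lower and the median was -0.389 points. No body passed an adjusted p of 0.05, among the collagens (smallest 0.525) or among all genes (0.0%). Unadjusted, 6 of 40 collagen bodies had p under 0.05, all lower, against a background of 8.68%. Every DCBQ sample lay below every control in 11 of the 40 (13.8% of all bodies did so) and above in none of them (2.20%). Collagen bodies held more CpGs than most, with a median of 129.5 against 58. Among bodies with at least 100 CpGs, a limit chosen after seeing the data, the groups separated downward in 9 of 27 collagen genes and in 21.5% of all 5008 genes, and 24 of 27 and 78.8% read lower. With each sample centred on its mean over all CpGs, 25 of 40 collagen bodies and 48.6% of all bodies read lower, and the collagen median was -0.0761 points.

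By family, all 9 fibrillar bodies (median -0.915 points), all 4 of type IV (-0.526), all 5 of type VI (-0.704) and both multiplexins (-0.879) read lower. The fibril-associated genes were split, with 6 of 10 lower and a median of -0.202 points, as were the transmembrane genes, 2 of 4. These counts are read beside the 69.8% of all bodies that were lower. Without control replicate 1, 31 of the 40 bodies read lower, and without control replicate 2, 34 did, the lowest and highest counts with any sample left out.

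COL22A1, a fibril-associated collagen of tissue junctions, had the smallest p: its 236 CpGs averaged 59.4%, 60.6% and 59.6% in controls and 57.5%, 58.4% and 57.4% after DCBQ, differing by -2.12 points (SE 0.529, adjusted p = 0.525). COL10A1, the collagen of hypertrophic cartilage, read 68.6%, 67.3% and 69.3% in controls and 65.2%, 66.6% and 66.4% after DCBQ over only 6 CpGs, and its span overlaps the gene NT5DC1. COL6A3, the long chain of type VI collagen, read 79.5%, 79.3% and 79.5% in controls and 78.4%, 77.3% and 78.1% after DCBQ, differing by -1.52 points (SE 0.479, adjusted p = 0.561). COL2A1, the main cartilage collagen, read 41.1%, 40.8% and 41.7% in controls and 39.1%, 39.5% and 40.7% after DCBQ. In all 4 genes each DCBQ sample was below each control, and the differences of COL10A1 and COL2A1 were -2.33 (SE 0.703) and -1.43 (SE 0.554) points. The other bodies with separated groups were COL23A1, COL15A1, COL27A1, COL5A1, COL4A2, COL20A1 and COL18A1, with differences from -1.08 points in COL15A1 to -0.435 in COL27A1.

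Among the chains that an epithelium and its basement membrane use, COL4A2 read 81.3%, 81.6% and 81.3% in controls and 80.8%, 80.2% and 81.04% after DCBQ, and COL18A1 77.8%, 77.7% and 77.9% in controls and 76.9%, 77.4% and 77.03% after DCBQ. Both are separations of less than 1 point. COL4A1 read 76.2%, 76.4% and 75.97% in controls and 75.7%, 75.98% and 75.9% after DCBQ, and COL7A1 90.04%, 90.1% and 89.9% in controls and 90.1%, 89.3% and 89.6% after DCBQ. In the hemidesmosome collagen COL17A1 the values were 86.8%, 86.96% and 89.5% in controls and 86.9%, 87.7% and 87.3% after DCBQ. The groups overlapped in COL4A1, COL7A1 and COL17A1, and centring turned the differences of COL4A1 and COL7A1 to 0.0835 and 0.0868 points. The type I chains COL1A1 and COL1A2 read 66.2%, 67.8% and 67.3% in controls and 66.3%, 66.2% and 66.1% after DCBQ, and 81.1%, 76.8% and 81.4% in controls and 76.4%, 80.5% and 78.3% after DCBQ (7 CpGs). COL6A1 read 83.1%, 83.2% and 82.7% in controls and 82.5%, 82.7% and 82.3% after DCBQ. In these 3 genes the highest DCBQ sample exceeded the lowest control.

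The 4 bodies with the smallest p among those higher after DCBQ all had overlapping groups. They were COL14A1, at 62.1%, 62.1% and 60.6% in controls and 61.8%, 65.6% and 60.5% after DCBQ, and COL25A1, at 60.9%, 61.8% and 60.3% in controls and 61.7%, 60.95% and 60.97% after DCBQ. The others were COL9A1, at 42.6%, 39.3% and 39.4% in controls and 41.3%, 40.5% and 40.5% after DCBQ, and COL8A1, at 77.5%, 74.7% and 74.9% in controls and 74.7%, 77.9% and 75.5% after DCBQ. DCBQ replicate 2 was the highest of the 6 samples in COL14A1, and without it that difference was -0.461 points. Their differences, 1.04, 0.229, 0.346 and 0.338 points, were each smaller than their SE of 1.38, 0.552, 0.973 and 1.15.

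**Figure D3:**
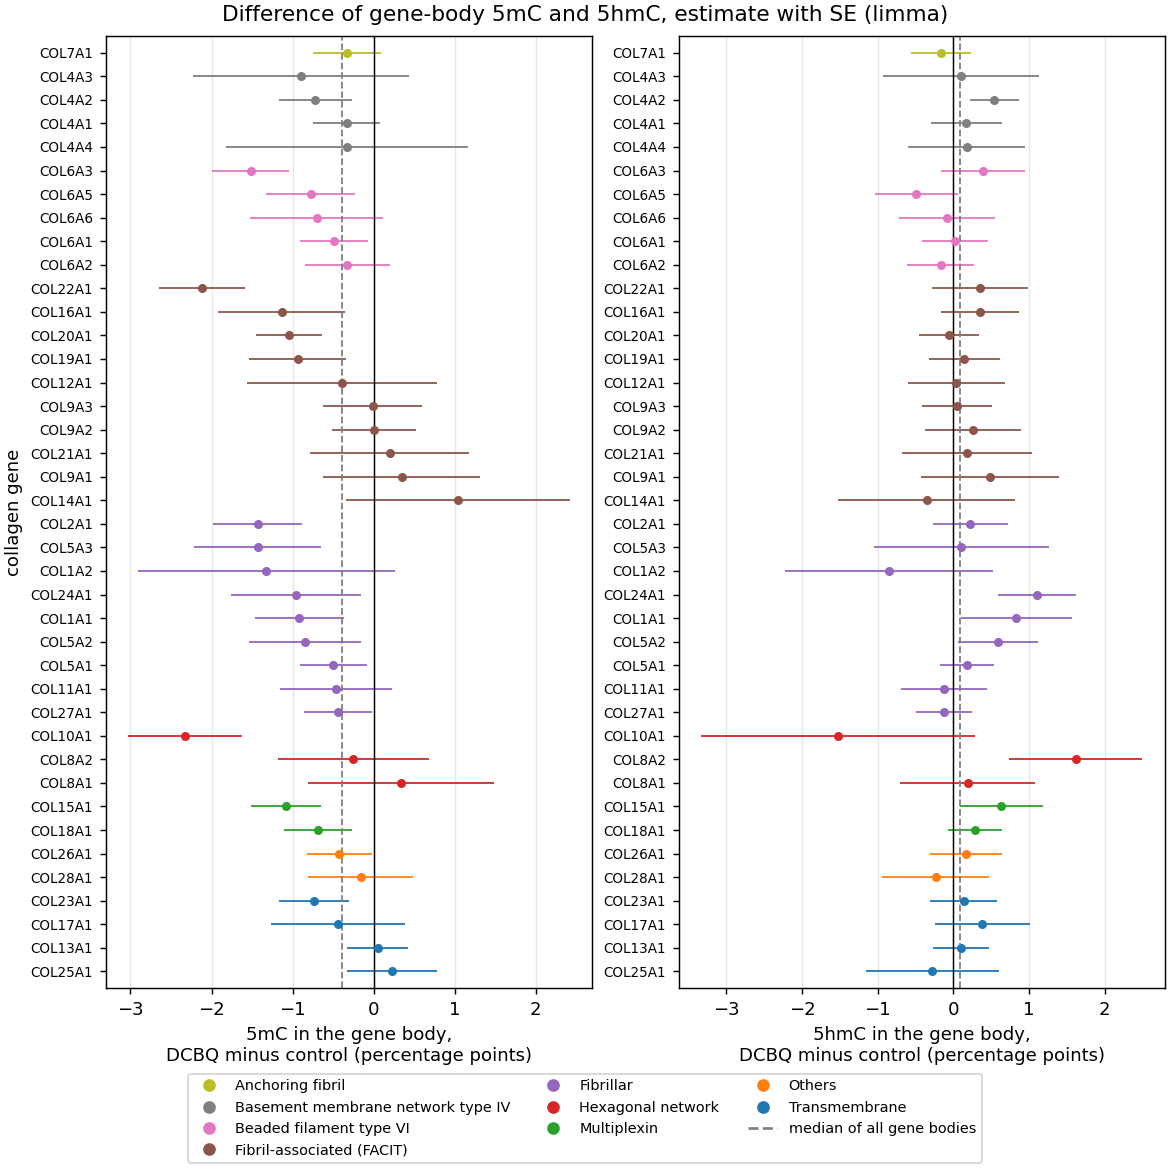
Difference between DCBQ and control samples in gene-body 5mC (left) and 5hmC (right), in percentage points, for 40 collagen genes, with points at the estimate, bars of 1 SE and colours by family. The dashed line is the median of all gene bodies, -0.389 points for 5mC and 0.0875 for 5hmC. All 9 fibrillar genes lie left of 0 in 5mC.

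5hmC in the bodies was near 4% in both groups, with a control median of 3.98% against 3.21% over all bodies. It ran from 2.48% in COL4A2 to 6.51% in COL25A1. After DCBQ 28 of 40 read higher and 12 lower, with a median difference of 0.157 points, while 56.6% of all 15768 bodies read higher and 43.4% lower, and the median over all was 0.0875. Without DCBQ replicate 3 the collagen median was 0.0521 points with 18 of 40 lower, and without DCBQ replicate 1 it was 0.08185 with 18 lower. Without control replicate 3 it was 0.0894, and centring each sample on its mean over all CpGs gave 0.0595. No body passed the adjusted threshold (0.0% of all), no collagen body had an unadjusted p under 0.05 (5.34% of all did), and the smallest adjusted p was 0.942. Across genes 5mC and 5hmC of the body had a Spearman's rho of -0.408 over the 40 collagen genes and of 0.153 over 15768 genes.

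Every DCBQ sample exceeded every control in 2 collagen bodies, as in 6.38% of all bodies, and none separated downward, as 3.48% did. The fibrillar collagen COL24A1 read 4.32%, 3.96% and 4.08% in controls and 5.19%, 5.34% and 5.13% after DCBQ, differing by 1.103 points (SE 0.516, adjusted p = 0.942). COL4A2 read 2.75%, 2.31% and 2.39% in controls and 3.12%, 3.096% and 2.87% after DCBQ, differing by 0.541 points (SE 0.322, adjusted p = 0.972), and its 5mC was lower in the same samples. COL8A2 read 3.69%, 2.93% and 2.97% in controls and 3.62%, 4.02% and 6.78% after DCBQ, where DCBQ replicate 3 was the highest. COL15A1 read 3.07%, 3.18% and 2.73% in controls and 3.702%, 2.65% and 4.54% after DCBQ. In these last genes the lowest DCBQ sample was below the highest control.

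The 4 bodies with the smallest p among those lower after DCBQ were COL10A1, COL1A2, COL6A5 and COL7A1. COL10A1 read 6.38%, 7.58% and 1.08% in controls and 3.49%, 1.48% and 5.49% after DCBQ over 6 CpGs and COL1A2 3.16%, 8.18% and 4.66% in controls and 5.97%, 3.82% and 3.67% after DCBQ over 7. COL6A5 read 4.29%, 4.46% and 4.78% in controls and 4.63%, 4.12% and 3.32% after DCBQ, and COL7A1 3.14%, 3.01% and 2.77% in controls and 2.21%, 2.996% and 3.23% after DCBQ. The groups overlapped in all 4. COL1A1 read 5.93%, 4.38% and 4.52% in controls and 5.53%, 6.03% and 5.77% after DCBQ, with control replicate 1 within the DCBQ range and the other controls below it. COL18A1 read 3.22%, 2.87% and 2.64% in controls and 3.23%, 3.01% and 3.33% after DCBQ, and COL4A1 3.68%, 3.48% and 2.78% in controls and 3.34%, 3.05% and 4.07% after DCBQ. Neither separated the groups. COL6A1 read 3.796%, 3.74% and 4.08% in controls and 3.97%, 3.54% and 4.18% after DCBQ, and COL17A1 3.91%, 3.62% and 2.51% in controls and 4.67%, 3.61% and 2.898% after DCBQ. The differences of COL6A1 and COL17A1 were 0.0232 (SE 0.438) and 0.382 (SE 0.629) points.

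For the 11 genes with no listed start, the windows at both gene ends were read instead, 1500 bp outside to 500 bp inside, without knowing which end is the start. These windows were added after seeing that the reference lists no start for them. A total of 11 such ends, of 8 genes, had at least 5 CpGs. The lower-coordinate end of COL1A2, a fibrillar chain, averaged 75.9% 5mC in controls. The ends of COL1A1 averaged 83.3% (lower coordinate) and 54.9% (higher coordinate), and those of COL6A1 39.6% and 84.5%. The level was lowest at the higher-coordinate end of COL22A1, 5.72% over 6 CpGs. No end passed the test in either mark (0.0% of all), and none of the 11 separated in 5hmC, where 3.93% of all ends did so downward and 6.31% upward. The lower-coordinate end of COL14A1, another fibril-associated chain, was the single one with separated groups in 5mC, where 3.12% of all 4069 ends separated upward and 9.04% downward. It read 52.3%, 51.4% and 50.5% in controls and 55.1%, 52.6% and 54.9% after DCBQ, a difference of 2.802 points (SE 1.21, adjusted p = 0.7496). At the higher-coordinate end of COL20A1 DCBQ replicate 3 stood apart from the other 5 samples, with 63.6% 5mC over 5 CpGs and 26.7% 5hmC over 6, where the others read 88.0% to 97.8% and 1.04% to 5.03%.

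COL18A1 has a second listed start inside the gene, at position 45455522 of chromosome 21, and there both marks separated the groups. It was singled out after its values were seen. The window (chr21:45454022-45456022, 34 CpGs) read 81.4%, 79.4% and 79.5% in controls and 74.7%, 73.96% and 75.8% after DCBQ in 5mC, differing by -5.25 points (SE 1.01, adjusted p = 0.356). 5hmC over the same CpGs read 2.66%, 4.08% and 3.64% in controls and 7.33%, 6.896% and 6.07% after DCBQ, differing by 3.31 points (SE 1.14, adjusted p = 0.983). So 5mC was lower and 5hmC higher in each DCBQ sample than in any control. Over all 4296 further starts 0.0% passed the test in 5mC and 7.89% separated downward. Over the 4262 read for 5hmC 0.0% passed and 5.80% separated upward. The share with both at once is not given here, and the marks may not be independent readings. The difference in 5mC ranged from -5.74 to -4.596 points with each sample left out in turn, and that in 5hmC from 2.905 to 3.65. Groups that separate keep their direction whichever sample is left out, so these ranges describe only the size of the difference.

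In the 250 upstream bases printed above, with 9 CGs, 5mC read 75.6%, 72.9% and 71.9% in controls and 62.8%, 62.4% and 66.1% after DCBQ, and 5hmC 2.08%, 5.43% and 6.19% in controls and 13.4%, 8.24% and 6.77% after DCBQ. The first start of the gene, with 37 CGs upstream, read between 1.05% and 1.58% 5mC over the same distance in all samples. The tile around the internal start (chr21:45455001-45456000, 30 CpGs) read 81.2%, 79.1% and 79.3% in controls and 72.9%, 72.7% and 74.7% after DCBQ in 5mC. This tile and the 250 bases upstream of the internal start lie inside the window of that start and share its CpGs. Neither is therefore a separate reading. Of the 77 tiles of COL18A1 with 5mC values, 6 separated downward and 4 upward, where 8.20% and 3.36% of all tiles did. The window lies within an otherwise methylated body, of 77.8% in controls, whose span also overlaps SLC19A1. Among the other further starts, those of COL24A1 and COL5A1 lie beside the first one, and COL9A1 (19.3% 5mC in controls, 16 CpGs) and COL21A1 (5.02%, 6 CpGs) had overlapping groups.

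**Figure D4:**
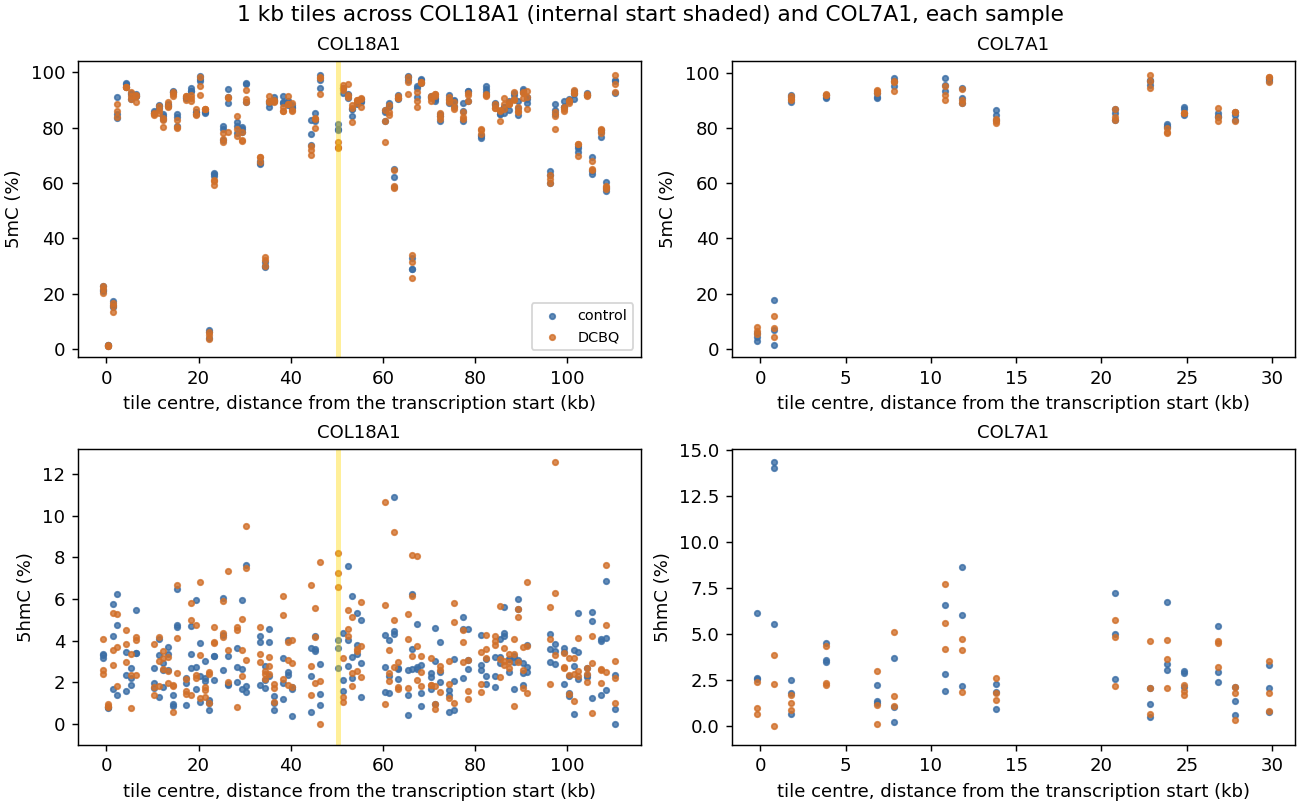
5mC (top) and 5hmC (bottom), in percent, in 1 kb tiles along COL18A1 (left, internal start shaded) and COL7A1 (right), against the distance of the tile centre from the first start in kb, with 1 point per sample. In the shaded tile the DCBQ samples read 72.7% to 74.7% 5mC against 79.1% to 81.2% in controls. The tile just after the COL7A1 start, which overlaps its start window, shows 5hmC of 0% to 3.88% against 5.54% to 14.4%.

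Over all tiles of the collagen genes, 459 of 749 read lower in 5mC after DCBQ, with a median of -0.399 points against -0.331 over 193266 tiles. Of all tiles 60.1% read lower. The groups separated downward in 64 and upward in 24, against 8.20% and 3.36% of all tiles. In 5hmC 390 of 733 read higher (53.0% of all tiles did), 27 separated downward and 35 upward, against 4.34% and 5.58% of 186403. No tile passed an adjusted p of 0.05 in either mark (0.0% of all), and 41 and 21 collagen tiles had an unadjusted p under 0.05, where 6.26% and 4.83% of all tiles did.

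The 3 tiles with the smallest 5mC p among those lower were that of COL18A1 above and 1 each in COL23A1 and COL25A1. In the COL23A1 tile (chr5:178350001-178351000, 9 CpGs), low for a gene body, 5mC read 16.5%, 16.5% and 13.7% in controls and 9.0%, 11.4% and 11.1% after DCBQ, differing by -5.04 points (SE 1.03, adjusted p = 0.677). The COL25A1 tile (chr4:109013001-109014000, 8 CpGs) read 44.3%, 44.9% and 46.2% in controls and 39.4%, 32.4% and 37.2% after DCBQ, differing by -8.83 points (SE 2.18, adjusted p = 0.712). Higher after DCBQ were tiles in COL13A1, a collagen of the neuromuscular junction, COL14A1 and COL4A2. That of COL13A1 (chr10:69912001-69913000, 5 CpGs) read 73.7%, 72.8% and 74.9% in controls and 79.98%, 80.9% and 78.6% after DCBQ, differing by 5.99 points (SE 1.31, adjusted p = 0.692). The COL14A1 tile (chr8:120143001-120144000, 5 CpGs) had a mean of 66.2% ± 2.54 (SD, n = 3) against 73.2% ± 2.25 (SD, n = 3), and the COL4A2 tile (chr13:110314001-110315000, 7 CpGs) 86.8% ± 0.248 against 89.6% ± 0.565. Each of these 6 tiles separated the groups.

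For 5hmC, the lowest p belonged to a tile of COL4A2 (chr13:110479001-110480000, 6 CpGs), which read 2.71%, 2.38% and 2.08% in controls and 0%, 0% and 0% after DCBQ. Its 5mC was 95.9%, 97.9% and 97.9% in controls and 100%, 100% and 100% after DCBQ, so all DCBQ samples read fully methylated there. The 5hmC of the DCBQ samples lay at the floor of the scale with an SD of 0, and that lack of spread enters the p of this tile. In COL4A1 a pair of tiles went opposite ways: chr13:110164001-110165000, 5 CpGs, read 7.02%, 8.4% and 2.605% in controls and 1.92%, 0% and 1.57% after DCBQ, and chr13:110180001-110181000, 7 CpGs, read 1.099%, 1.299% and 0% in controls and 6.13%, 6.299% and 2.87% after DCBQ. The third tile on the lower side was the one after the COL7A1 start given above, which overlaps the start window of that gene. On the higher side a COL13A1 tile (chr10:69862001-69863000, 5 CpGs) read 2.005%, 1.54% and 3.99% in controls and 5.65%, 9.54% and 7.33% after DCBQ, and its 5mC 95.6%, 97.3% and 94.5% in controls and 93.2%, 90.5% and 89.3% after DCBQ, lower in each DCBQ sample. In COL9A3, whose span overlaps TCFL5, a tile (chr20:62819001-62820000, 7 CpGs) read 2.04%, 6.03% and 1.103% in controls and 12.3%, 5.99% and 12.1% after DCBQ, where DCBQ replicate 2 lay within the control range. The adjusted p of all 6 was 0.975.

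The genes that make, process, bind and degrade collagen were read in the same fits, from lists that were chosen with earlier results of these data known. No gene of any list passed an adjusted p of 0.05 at the start or in the body, in either mark. Of the 38 genes for biosynthesis and processing, 26 had a start window and 37 a body. The counts of genes lower in 5mC are read beside the 59.3% of all starts and 69.8% of all bodies that were lower. At the start 16 of 26 read lower (median -0.0515 points, against -0.0905 over all genes), and in the body 22 of 37 (-0.241 against -0.389). Of the 19 receptors and breakdown enzymes 4 of 6 starts and 9 of 16 bodies read lower, with medians of -0.120 and -0.228 points. Of the 16 collagen-binding matrix proteins it was 5 of 8 starts and 7 of 14 bodies, at -0.182 and -0.0225.

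MMP14, the membrane-bound protease that cleaves fibrillar collagen, had the smallest p of the receptors and breakdown enzymes at the start in both marks. Its 23 CpGs read 14.2%, 11.3% and 14.8% in controls and 4.06%, 6.97% and 9.12% after DCBQ in 5mC, with adjusted p = 0.477, and 0.956%, 0.785% and 0.826% in controls and 6.62%, 4.39% and 2.91% after DCBQ in 5hmC, with adjusted p = 0.953. Thus 5mC was lower and 5hmC higher in every DCBQ sample. Over all starts 8.18% separated downward in 5mC and 5.43% upward in 5hmC, and MMP14 was named because of its small p. SERPINH1, the chaperone of procollagen, read 1.41%, 1.596% and 1.85% in controls and 0.914%, 0.884% and 0.739% after DCBQ in 5mC at its start. Its groups did not overlap, as at the 8.18% of all starts that separated downward, at levels under 2%. SERPINH1 was also named because of its small p. HSPG2, the gene of perlecan in basement membranes, had start 5hmC of 1.83% ± 0.495 against 3.75% ± 0.586 (SD, n = 3 each) and start 5mC of 19.8% ± 0.497 against 18.2% ± 1.203.

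The other genes with the smallest p of their list and direction were as follows, each as control against DCBQ, mean ± SD of 3 samples. For 5mC at the start, MIA3, an export factor for procollagen, read 2.33% ± 0.429 against 2.88% ± 0.388, the integrin chain ITGA1 1.35% ± 0.767 against 1.71% ± 0.634 and nidogen NID2 39.4% ± 0.733 against 41.5% ± 1.19. For 5hmC at the start, CREB3L1 read 3.24% ± 0.373 against 2.43% ± 0.441, the prolyl hydroxylase P3H2 1.58% ± 1.94 against 7.096% ± 4.799 over 5 CpGs, ITGA11 1.699% ± 0.577 against 1.49% ± 0.442 and SPARC 1.11% ± 0.453 against 0.866% ± 0.242. Of these starts CREB3L1 alone separated the groups, downward as at 4.22% of all starts. In the body, 5mC of the galactosyltransferase gene COLGALT1 was 81.9% ± 0.739 against 80.01% ± 0.7698, of the platelet collagen receptor GP6 75.3% ± 3.58 against 69.3% ± 2.01 and of fibronectin, FN1, 79.8% ± 0.686 against 76.3% ± 1.62. Higher were the crosslinking enzyme gene LOXL1 at 13.3% ± 0.5498 against 14.9% ± 0.962, the receptor gene DDR1 at 20.7% ± 0.967 against 21.3% ± 0.421 and MATN2 at 75.03% ± 0.756 against 76.5% ± 0.976. The groups separated downward in COLGALT1, GP6 and FN1, as in 13.8% of all bodies, and these genes were picked for the smallest p. For body 5hmC, P4HA1 read 4.29% ± 0.911 against 2.73% ± 0.632, GP6 6.83% ± 5.49 against 2.67% ± 1.87 and DCN 5.01% ± 1.12 against 3.36% ± 1.06 on the lower side. On the higher side were BMP1, the procollagen C-proteinase, at 2.52% ± 0.381 against 3.499% ± 0.3196, LAIR1 at 4.56% ± 0.222 against 6.63% ± 1.902 and MATN3 at 2.99% ± 1.58 against 4.76% ± 0.305. BMP1 alone of these 6 had separated groups, upward as in 6.38% of all bodies.

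The label of the cells could be set against start 5mC of only 5 of 27 marker genes, those with a start window, and 5mC does not measure expression. The basal keratin gene KRT5 averaged 2.24% ± 0.521 against 2.07% ± 0.652 and the urothelial factor GATA3 52.2% ± 15.4 against 56.8% ± 5.24, with controls from 39.6% to 69.3%. The uroplakin gene UPK1A read 79.1% ± 5.48 against 79.6% ± 1.87, VIM, a mesenchymal marker that cultured epithelial lines may also use, 1.22% ± 0.5103 against 0.744% ± 0.734, and the T-cell gene CD3D 84.1% ± 1.48 against 77.4% ± 3.21. CD3D, which is methylated in these cells, had every DCBQ sample below every control over only 7 CpGs (adjusted p = 0.568). Of all starts 8.18% separated downward. The part of other cell types in the collagen values was not tested.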

How the data were processed

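SV-HUC-1 cells with DCBQ or blank solution were profiled by RRBS and oxidative RRBS. Per the labels' protocols, DNA came from a QIAamp kit, and the library kits were Ovation RRBS Methyl-Seq and TrueMethyl oxBS. BSMAP 2.90, Trim Galore, cutadapt and the build hg38 are named in the submitters' processing notes. Each deposited value is a CpG's fraction (0 to 1), printed here as percent. Any value below 0 was set to 0 before averaging. Per the file names, strands were merged and a CpG needed 5 reads. Depth is not listed, so no interval from read counts is given.

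Column names match condition and number but not library type, so each column counts as 1 replicate of its condition. Gene spans came from RefSeq and starts from a separate promoter reference, both of GRCh38.p14. The promoter reference does not list every gene. Of 32374 positions in listed promoters, 100% fell on a CG. Each unit is the plain mean of its CpGs, with at least 5 CpGs. All starts, bodies, further starts, ends and 1 kb tiles were fitted with limma 3.58.1 (R 4.3.3, lmFit and eBayes with trend, two-sided), with Benjamini-Hochberg adjustment over all units of a kind. SE is from limma. The fit was also run on simulated data with normal noise whose SD followed the unit mean. Such data lack the floor of the scale and the uneven CpG numbers of real units. The error rate of the fit here is therefore not known from them. Whole-table means had an exact permutation test over 20 relabellings. Python 3.11.15 with pandas 2.3.3 and scipy 1.17.1 made the other values.

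The gene family and the lists were chosen with earlier results of these data known, and the rule for members uses symbols and no measured value. Named are the 4 members with the smallest p in each direction per mark and unit, 9 fixed genes (COL1A1, COL1A2, COL3A1, COL4A1, COL4A2, COL6A1, COL7A1, COL17A1, COL18A1), per list the gene with the smallest p in each direction, and 3 tiles per direction and mark. The alternatives were each sample left out, a replicate block, centring, 10 CpGs, a log2 ratio scale, CpGs of both tables, no variance trend, and 500 bp each side of the start. Gene ends, further starts and the count over large bodies were added after seeing the data.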

Additional observations from a re-analysis of the deposited data

How the results depend on the processing

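No setting gave a collagen start, body or tile an adjusted p under 0.05. Over all genes, 5hmC starts past the threshold numbered 0 in the main fit, 0 to 1 with each sample left out (1 without control replicate 1) and 1 on the log2 ratio scale, and neither gene was a collagen. The counts for 5mC starts, bodies and tiles were 0 in every setting run. The limits are 3 samples per group, an unknown depth, and CpGs that RRBS covers unevenly, which leave 6 CpGs for COL10A1 and 7 for COL1A2 bodies. Of 92 named values, 71 kept their direction in every setting. Where the groups separated, leaving out a sample could not turn the direction. Centring each sample on its mean over all CpGs, which takes the same amount from low and high units, gave 0.314 points for the median 5mC difference at collagen starts, 0.314 for COL4A1 and 0.216 for COL18A1 there, 0.251 for KRT5, -0.0761 for the median of the bodies, 0.0868 for COL7A1 and 0.0835 for COL4A1 body 5mC, and -0.0746 for COL6A1 body 5hmC. A window of 500 bp each side of the start gave medians of 0.0455 (5mC) and 0.0138 (5hmC), KRT5 at 0.0354, and start 5hmC of -0.216 for COL4A2 and 0.163 for COL18A1. With only CpGs in both tables COL9A1 body 5mC was -0.0983. The cause of these turns was not tested. With each sample left out in turn, the median 5mC difference of collagen starts ran from -0.186 to 0.347 points and that of 5hmC from -0.219 to 0.166. Start 5mC ran from -1.17 to 3.39 in COL7A1, -0.429 to 0.115 in COL18A1, -1.38 to 3.63 in UPK1A, -1.69 to 13.2 in GATA3 and -0.511 to 0.136 in KRT5. Start 5hmC ran from -0.283 to 0.166 in COL18A1 and -0.397 to 0.125 in ITGA11. Body 5mC ran from -0.614 to 1.22 in COL8A1, -0.122 to 0.609 in COL25A1, -0.221 to 1.44 in COL9A1, -0.461 to 2.12 in COL14A1 and -0.902 to 0.427 in COL17A1. Body 5hmC ran from -0.3699 to 0.139 in COL7A1, -1.93 to 0.576 in COL1A2, -0.0919 to 0.796 in COL17A1, -0.1202 to 0.387 in COL4A1 and -0.118 to 0.201 in COL6A1. The replicate block left 0 calls and the medians at -0.102 and -0.0852 points (starts, 5mC and 5hmC) and -0.492 and 0.157 (bodies). Same-numbered samples did not deviate together, with correlations from -0.0421 to 0.0144, so the numbers were not taken as pairs, and in 1 of 12 comparisons a sample correlated best with its own number.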
